A study of Solanum lycopersicum with 6 samples.

Results

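This account covers 8 gene models of tomato (Solanum lycopersicum) leaf that encode parts of the translation machinery: 4 members of the cap-binding eIF4E family and 4 genes for the elongation factor eEF1A. They were taken by identifier from the 35768 gene models of the deposited count table, as eIF4E1 (Solyc03g005870), eIF4E2 (Solyc02g021550), eIFiso4E (Solyc09g090580) and nCBP (Solyc10g080660), and as the eEF1A genes Solyc06g005060, Solyc06g009960, Solyc06g009970 and Solyc11g069700. Each identifier matched 1 model, and all 8 passed the filter on low counts that left 20806 models for testing. The table gives identifiers without names. A RefSeq gene table for tomato (assembly SLM_r2.1) places eIF4E1 on chromosome 3, eIF4E2 on chromosome 2 and the eIFiso4E gene on chromosome 9, the chromosome numbers that these 3 identifiers carry, but 0 of its entries hold such an identifier, so the names could not be checked further.

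Translation of most plant mRNAs begins when an eIF4E protein binds the cap at the start of the mRNA and, through the scaffold protein eIF4G, recruits the helicase eIF4A and then the small ribosomal subunit. Flowering plants carry a second form of the complex built on eIFiso4E and its own scaffold eIFiso4G, and a more distant cap-binding protein, nCBP. eIF4E and eIFiso4E genes of crop plants are also known as susceptibility factors for potyviruses. eEF1A acts later: bound to GTP, it brings each aminoacyl-tRNA to the elongating ribosome. It is among the most abundant proteins of a cell, is encoded by a family of closely similar genes, and is often used as a reference gene in expression work.

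The series holds 6 libraries from leaves in 1 biological condition, 2 of each kind, and no genotype, strain or cultivar is given in the labels used here. The LTM libraries hold ribosome-protected fragments, or footprints, of leaves treated with LTM, an abbreviation the labels do not spell out; puromycin was added to their extracts, and they are labelled as initiating ribosomes. The CHX libraries come from footprints of leaf extracts in buffer with 100 µg/ml of cycloheximide, which arrests ribosomes during elongation, and are labelled as elongating ribosomes. The mRNA libraries hold total RNA depleted of rRNA, taken from an aliquot of the cycloheximide extract, so no RNA library of LTM-treated leaves is analysed here. All plants were kept at 28 °C under 12 h of light a day, and the labels give their age as 3 weeks in one field and 2 weeks in another. Whether replicates came from separate plants is not said, so p-values refer to the variation between libraries alone, and that may be technical.

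Depth ran from 18240140 counts in LTM replicate 1 to 48704200 in CHX replicate 1. The scarcest of the 8 models, eIF4E2, had 164 to 461 counts in a library and the eEF1A genes 1469 to 55188. At these counts the 95% exact Poisson interval of a level reached at most 15.6% for eIF4E2 and at most 5.15% for eEF1A, as the mean of its upward and downward reach. Such intervals cover counting error only. Levels are given as CPM, counts per 1000000 of the library total, which is not divided by gene length, so levels of different genes are not compared with each other. The authors counted footprints in the coding region but mRNA in the whole transcript, so a ratio of footprints to mRNA also depends on the untranslated part of each transcript. Leaves are mixtures of cell types, and in such bulk samples fewer cells of a type and less RNA per cell cannot be told apart. The tissue label was not checked against leaf marker genes, since the identifiers come without names.

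Of the cap-binding genes, eIF4E1 had its lowest CPM in mRNA and eIFiso4E its lowest in LTM. eIF4E1 had 14.7 and 13.0 CPM in the LTM libraries, 11.2 and 9.90 CPM in the CHX libraries and 6.73 and 7.31 CPM in the mRNA libraries. Both kinds of footprint lay above mRNA. LTM lay above CHX on library totals alone: with the TMM scaling factors used for the tests below, the values were 12.6 and 11.7 CPM in LTM and 12.4 and 10.3 CPM in CHX, which overlap. eIFiso4E, the cap-binding subunit of the isoform complex, had 18.8 and 20.9 CPM in LTM, 25.0 and 25.0 CPM in CHX, and 25.7 and 28.5 CPM in mRNA. LTM lay below both other kinds. With TMM factors its values were 16.2 and 18.7 CPM in LTM, 27.8 and 25.9 CPM in CHX, and 29.8 and 27.8 CPM in mRNA, so that CHX and mRNA met.

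eIF4E2, the second eIF4E gene of tomato, had 13.0 and 9.41 CPM in LTM, 9.47 and 8.63 CPM in CHX, and 6.61 and 6.42 CPM in mRNA. Its mRNA values lay below all 4 footprint values, while those of LTM and CHX overlapped, and its LTM replicates differed 1.39-fold. nCBP, the more distant cap-binding protein, had 22.6 and 17.9 CPM in LTM, 18.9 and 16.7 CPM in CHX, and 13.6 and 15.6 CPM in mRNA. Again mRNA was lowest in both libraries and the 2 kinds of footprint overlapped.

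The eEF1A genes shared another order, with CHX above both other kinds in every library. Solyc06g005060 had 676 and 829 CPM in LTM, 1133 and 1143 CPM in CHX, and 429.6 and 533 CPM in mRNA. Solyc06g009970 had 489 and 622 CPM in LTM, 867 and 918 CPM in CHX, and 554 and 640.1 CPM in mRNA, so that its LTM and mRNA values overlapped while CHX stood apart. Solyc06g009960, whose identifier follows directly before that of Solyc06g009970, had 93.9 and 120.4 CPM in LTM, 130.0 and 169.7 CPM in CHX, and 80.0 and 103 CPM in mRNA. Its LTM and mRNA ranges also overlapped, and CHX was highest.

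Solyc11g069700, the eEF1A gene numbered on chromosome 11, had 200.4 and 302 CPM in LTM, 373 and 463 CPM in CHX, and 59.2 and 158 CPM in mRNA. The 3 ranges did not overlap. Its mRNA replicates differed 2.67-fold, a ratio above that of 99.7% of the 6494 models with at least 10 CPM of mRNA, whose median replicate ratio was 1.20. The other 7 genes differed 1.03-fold to 1.29-fold between the mRNA replicates.

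Counted over the 8 genes, both CHX libraries lay above both mRNA libraries in 7 genes and below them in 1, eIFiso4E, where 34.7% and 39.3% of all tested models did so. Both LTM libraries lay above both CHX libraries in 1 gene, eIF4E1, and below them in 5, against 46.8% and 22.3% of all tested models. Both LTM libraries lay above both mRNA libraries in 5 genes and below them in 1, eIFiso4E, against 48.2% and 29.0%. These counts rest on CPM of library totals, on which LTM values of most models are shifted upward relative to CHX and mRNA, by a median of 0.29 and 0.27 on the log2 scale compared with the fitted scaling used below.

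**Figure D1:**
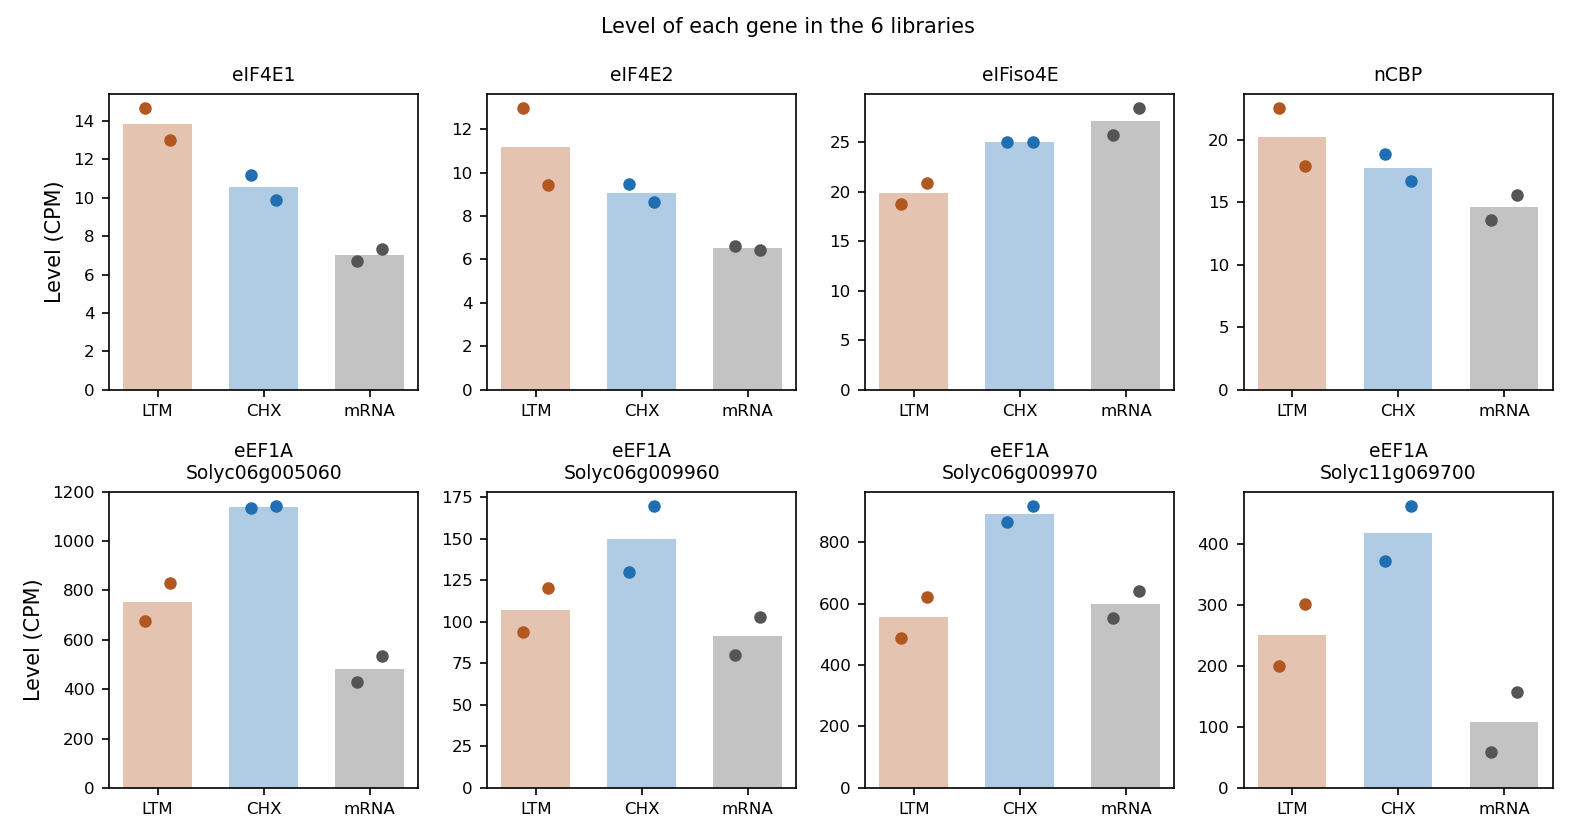
Level in CPM of library totals (vertical axes, linear and starting at 0, each with its own scale) in LTM, CHX and mRNA libraries; points are the 2 libraries of a kind and bars their mean. In the upper row eIF4E1 is lowest in mRNA and eIFiso4E is lowest in LTM, while LTM and CHX of eIF4E1 overlap, and CHX and mRNA of eIFiso4E meet, with TMM factors; in the lower row CHX is the highest kind for all 4 eEF1A genes.

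Summed over the 4 models, eEF1A took 0.146% and 0.187% of the counts in the LTM libraries, 0.250% and 0.270% in the CHX libraries, and 0.112% and 0.143% in the mRNA libraries. CHX was highest, and on library totals the LTM values lay just above those of mRNA. With TMM factors the sums were 1254 and 1679 CPM in LTM and 1301 and 1398 CPM in mRNA, which overlap. CHX stayed highest, at 2779.8 and 2795 CPM. The 4 eIF4E-family models together had 69.2 and 61.3 CPM in LTM, 64.6 and 60.2 CPM in CHX, and 52.7 and 57.9 CPM in mRNA. The family sum thus varied less between kinds of library than did eIF4E1 or eIFiso4E alone. Reads that match several closely similar genes may have been split or dropped in counting. The handling of such reads is not given in the sources used here. If they were split, values of single eEF1A genes are less certain than their sum. If they were dropped, the sum is lowered as well, and not necessarily to the same degree in footprints and mRNA.

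CHX over mRNA gives the elongating ribosomes on a gene relative to its transcript level, often called translational efficiency. All 4 eEF1A genes were higher in CHX than in mRNA, by 1.51-fold to 4.02-fold, and so was eIF4E1, by 1.52-fold. The 4 eEF1A models summed had a fold of 2.07. eIF4E2, nCBP and eIFiso4E did not pass the test. By edgeR (quasi-likelihood test, p adjusted by Benjamini-Hochberg over all 20806 models, threshold 0.05), 5 of the 8 genes were higher and 0 lower, where 22.5% of all tested models were called higher and 27.4% lower. Also at an unadjusted p under 0.05, and in DESeq2, 0 of the 8 were lower. Genes of high level were called higher more often: among the 1057 models whose mean level in the 6 libraries reached 100 CPM, the class of all 4 eEF1A genes, 62% were higher in CHX. The median log2 fold change was 0.99 over the 4 eEF1A genes and 0.67 over that class, 0.40 over the 4 eIF4E-family genes and -0.02 over all tested models. In the class of 10 to 100 CPM, that of eIF4E1, nCBP and eIFiso4E, the median was 0.28 and 36.6% of the models were higher. These genes lay above 71.2%, 51.4% and 30.5% of that class. eIF4E2, in the class of 1 to 10 CPM with a median of -0.19, lay above 79.3% of its class.

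Folds here and below come from a model with TMM scaling factors, which set the bulk of the models to no change, so they differ somewhat from ratios of the CPM values above. Solyc11g069700 had the highest fold of the 8 genes, 2.01 on the log2 scale (SE 0.38, edgeR adjusted p = 0.0039), and lay above 97.1% of all tested models. With its discordant mRNA replicates, that value was 1.54 without mRNA replicate 1 and 2.71 without mRNA replicate 2. Solyc06g005060 followed at 1.26 on the log2 scale (SE 0.18, edgeR adjusted p = 0.0011), a 2.40-fold difference that lay above 94% of the tested models. These 2 eEF1A genes passed the threshold in all 13 alternative fits.

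Solyc06g009960 stood at 0.73 (SE 0.19, edgeR adjusted p = 0.0141) and Solyc06g009970 at 0.60 (SE 0.18, edgeR adjusted p = 0.0258), both on the log2 scale. Within the class of at least 100 CPM these 2 genes lay near the middle, above 54.8% and 43.1% of its models, whereas Solyc06g005060 lay above 91.8%. The log2 value of eIF4E1 was 0.61 (SE 0.16, edgeR adjusted p = 0.0142). The lower-fold calls depended on having all libraries. eIF4E1 missed the threshold without CHX replicate 1 (edgeR adjusted p = 0.0836), mRNA replicate 1 (0.0523) or mRNA replicate 2 (0.0874). Solyc06g009960 missed it without CHX replicate 2 (0.0743), mRNA replicate 1 (0.0874) or mRNA replicate 2 (0.0594), and Solyc06g009970 without any 1 of the 4 CHX and mRNA libraries (0.0774 to 0.120). The count of genes higher was therefore 3 without either CHX library and 2 without either mRNA library.

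The 3 genes that were not called had intervals that still allow sizeable differences. eIF4E2 had a log2 fold change of 0.49 with a 95% interval of 0.04 to 0.94 (edgeR adjusted p = 0.0692), and it was called higher in 5 of 12 alternative fits, among them no filter (0.0458), a fit to CHX and mRNA alone (0.0365), and fits without LTM replicate 1 (0.0426) or LTM replicate 2 (0.0446). nCBP had 0.30, with an interval of -0.07 to 0.68 (edgeR adjusted p = 0.155). eIFiso4E had -0.10, with an interval of -0.42 to 0.22 (edgeR adjusted p = 0.569). When only models of at least 10 CPM in 2 libraries were kept, which left out eIF4E2 and moved all log2 ratios by a median of -0.27, eIFiso4E was called lower at -0.38 (edgeR adjusted p = 0.0471) and eIF4E1, Solyc06g009960 and Solyc06g009970 were no longer called.

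**Figure D2:**
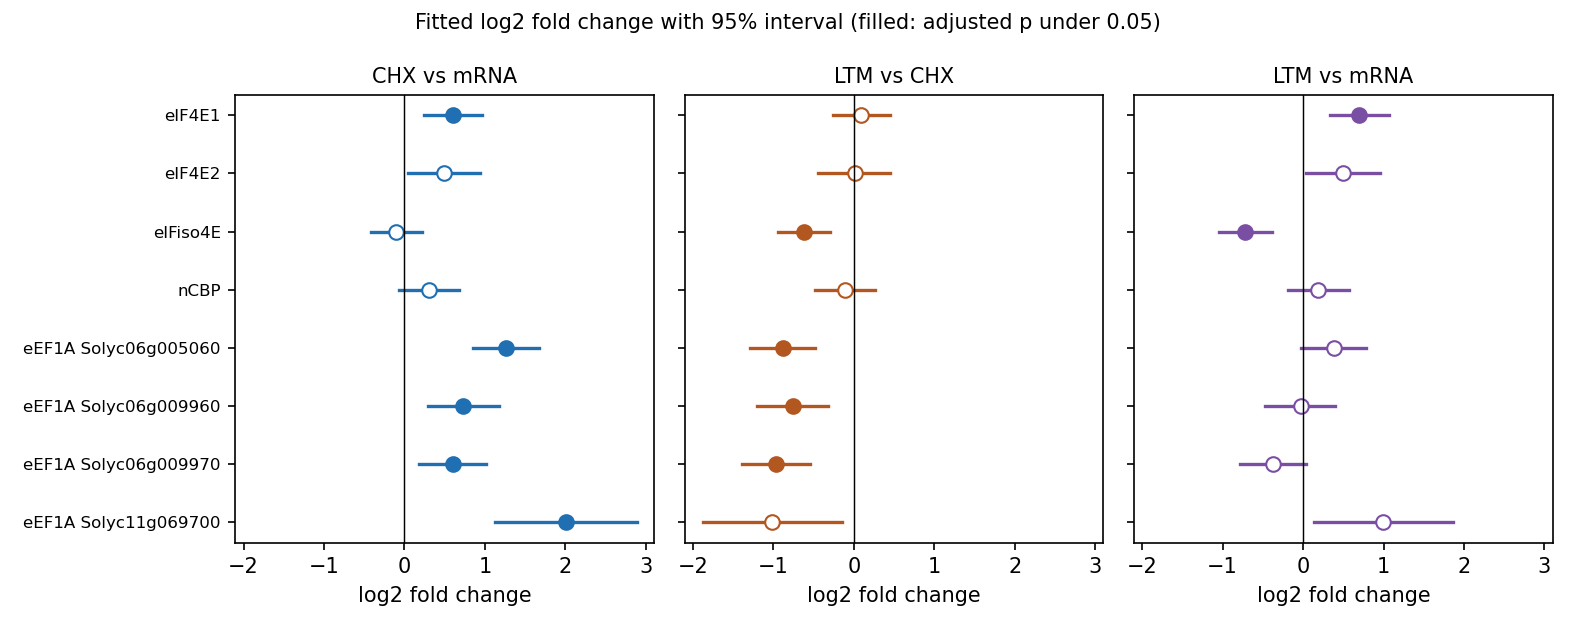
Fitted log2 fold change (horizontal axis; first-named kind over second) of the 8 genes in the 3 comparisons, with 95% intervals as lines; filled points passed edgeR's test at an adjusted p under 0.05. The eEF1A genes lie to the right of 0 in CHX vs mRNA and to the left in LTM vs CHX, and eIF4E1 and eIFiso4E lie on opposite sides in LTM vs mRNA.

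Comparing LTM with CHX sets footprints given as initiating against those given as elongating, both counted over the coding region. Lengths of coding regions were not used. Initiating and elongating ribosomes need not be spread alike along a coding region, so this ratio may also depend on its length, which was not tested. Solyc06g005060, Solyc06g009960 and Solyc06g009970 of the eEF1A genes and eIFiso4E were lower in LTM, and no gene of the 8 was higher. That is 4 of 8 lower and 0 of 8 higher, where 19.6% of all tested models were called lower and 22.4% higher; 0 of 8 were also higher at an unadjusted p under 0.05 and in DESeq2. In the class of at least 100 CPM, 40% of the models were lower. The median log2 fold change was -0.93 over the 4 eEF1A genes against -0.40 over that class and -0.01 over all tested models, and it was -0.05 over the 4 eIF4E-family genes.

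Solyc06g009970 fell by 0.97 on the log2 scale in LTM (SE 0.18, edgeR adjusted p = 0.00424), to 0.511 of CHX. Solyc06g005060 fell by 0.88 (SE 0.18, edgeR adjusted p = 0.00561), to 0.542 of CHX, and Solyc06g009960 by 0.76 (SE 0.19, edgeR adjusted p = 0.0142), to 0.589. Solyc11g069700 had the lowest ratio, 0.496, but it was not called (log2 fold change -1.01, 95% interval -1.87 to -0.15, edgeR adjusted p = 0.0601). That p lies close to the threshold, and the gene was called lower in 7 of 13 alternative fits, among them DESeq2 (0.0248), upper-quartile factors (0.0477), no filter (0.00916), a fit to LTM and CHX alone (0.0253), and fits without mRNA replicate 1 (0.0171) or mRNA replicate 2 (0.0264). It had a log2 fold change of -0.73 without LTM replicate 1 and -1.38 without LTM replicate 2. In the class of at least 100 CPM the 4 eEF1A genes lay above 7.1% to 21.6% of the models, near its lower end.

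eIFiso4E was the 1 cap-binding gene that differed, and it fell by 0.62 on the log2 scale in LTM (SE 0.14, edgeR adjusted p = 0.00978). In its class of 10 to 100 CPM, 33.1% of the models were called lower and the median log2 fold change was -0.25. eIFiso4E lay above 23% of that class. The other cap-binding genes had log2 fold changes near 0: 0.09 for eIF4E1 (95% interval -0.26 to 0.45), 0.01 for eIF4E2 (-0.44 to 0.45) and -0.11 for nCBP (-0.48 to 0.26). Their edgeR adjusted p ran from 0.613 to 0.991. The sign of these 3 values changed with scaling or with single libraries left out, so no direction is given for them.

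The calls in LTM vs CHX depend on the scaling. With library totals in place of TMM factors, which moves all log2 ratios by a median of 0.29, the 4 eEF1A genes and eIFiso4E stayed below 0 but only Solyc06g009970 passed, at -0.68 (edgeR adjusted p = 0.0308). On that scale Solyc06g005060 was at -0.60 (0.0558), Solyc06g009960 at -0.48 (0.136) and eIFiso4E at -0.33 (0.195). Leaving out LTM replicate 1 gave 2 genes lower, since Solyc06g009960 (edgeR adjusted p = 0.0573) and eIFiso4E (0.0544) missed the threshold. eIFiso4E also missed it without CHX replicate 1 (0.0511), and Solyc06g009960 without CHX replicate 2 (0.0732).

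Comparing LTM with mRNA relates initiating footprints to transcript level, with the 2 kinds taken from differently treated leaves. Of the 8 genes, eIF4E1 and eIFiso4E passed the test, in opposite directions: eIF4E1 was higher in LTM by 1.63-fold and eIFiso4E was lower, at 0.607 of mRNA. That is 1 of 8 genes higher and 1 of 8 lower, against 25.5% higher and 27.4% lower among all tested models, shares that the 8 genes do not exceed. In the class of 10 to 100 CPM, that of eIF4E1 and eIFiso4E, 29.7% of the models were higher and 24.4% lower. Within it, eIF4E1 lay above 78.3% of the models and eIFiso4E above 17.5%. The log2 value of eIF4E1 was 0.70 (SE 0.16, edgeR adjusted p = 0.007) with a 95% interval of 0.33 to 1.07, and it passed in all 13 alternative fits. eIFiso4E had -0.72 (SE 0.14, edgeR adjusted p = 0.00356) with an interval of -1.05 to -0.39, and it passed in all alternative fits but that on library totals, where it was -0.45 (0.061). Its intervals and those of eIF4E1 do not overlap, though the difference between the 2 genes was not itself tested.

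eIF4E2 had a log2 fold change of 0.49 in LTM vs mRNA (95% interval 0.04 to 0.95, edgeR adjusted p = 0.067), and was called higher in 3 of 12 alternative fits, among them that without LTM replicate 2, at 0.70 (0.0313). nCBP had 0.19 (interval -0.19 to 0.57, edgeR adjusted p = 0.351). None of the 4 eEF1A genes passed edgeR's test here; at an unadjusted p under 0.05, 1 of them did, and DESeq2 called 1, in both cases Solyc11g069700. That gene had a log2 fold change of 0.99 (interval 0.13 to 1.86, edgeR adjusted p = 0.0542), which was 0.52 with mRNA replicate 1 left out and 1.76 with mRNA replicate 2 left out; it was called higher in 6 of 13 alternative fits, among them the second of these (0.00694), DESeq2 (0.0179), library totals (0.0186), no filter (0.00982) and the fit without LTM replicate 1 (0.0331). Solyc06g005060 had 0.38 (-0.03 to 0.78, edgeR adjusted p = 0.103) and was called higher without LTM replicate 1, at 0.55 (0.0367). Solyc06g009970 had -0.37 (-0.79 to 0.04, edgeR adjusted p = 0.116) and was called lower without LTM replicate 2, at -0.59 (0.0335). Solyc06g009960 stood at -0.03 (-0.47 to 0.40, edgeR adjusted p = 0.90). With library totals as scaling, eIF4E1, eIF4E2, Solyc06g005060 and Solyc11g069700 were called higher and none lower.

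**Figure D3:**
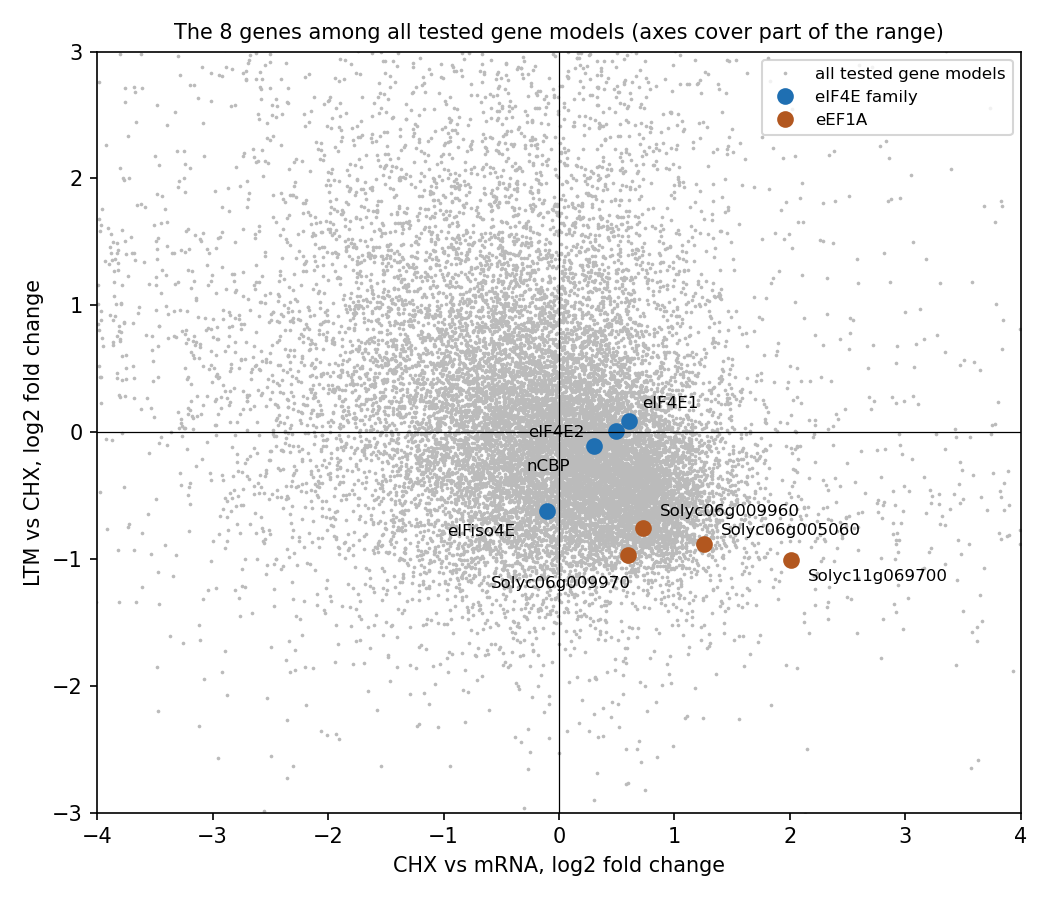
Log2 fold change of CHX vs mRNA (horizontal) and of LTM vs CHX (vertical) for all tested gene models (grey; 18414 of 20806 lie within the axes) and for the 8 genes (blue, eIF4E family; orange, eEF1A). The 4 eEF1A genes lie at the lower right and the 4 cap-binding genes nearer the centre; the axes share the CHX libraries, so a downward slope of the cloud can arise from that alone.

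Shares of reads within a family do not depend on the scaling between libraries. Of the reads of the 4 cap-binding genes, eIFiso4E held 27.2% and 34.1% in the LTM libraries, 38.7% and 41.5% in CHX, and 48.8% and 49.3% in mRNA. eIF4E1 held 21.2% and 21.2% in LTM, 17.4% and 16.5% in CHX, and 12.8% and 12.6% in mRNA. For both genes the 3 ranges did not overlap, and the orders were opposite. Shares within a family make up a whole in each library, so a fall in 1 gene must be met by a rise elsewhere. The opposite order is therefore partly set by the measure, and it was not particular to eIF4E1. Mean shares of eIF4E2 and nCBP were also highest in LTM and lowest in mRNA. The 3 ranges of eIF4E2 did not overlap either. Its shares were 18.9% and 15.4% in LTM, 14.7% and 14.3% in CHX, and 12.5% and 11.1% in mRNA. For nCBP, LTM and CHX met at 29.3%, and mRNA lay below both. eIF4E2 held 17.1% ± 2.47 in LTM, 14.5% ± 0.222 in CHX and 11.8% ± 1.03 in mRNA, and nCBP 31.0% ± 2.44, 28.5% ± 1.13 and 26.4% ± 0.808 in the same order (SD, n = 2 each). The shares are of reads and not of molecules, since the genes' lengths were not used. With 2 libraries a kind, an exact permutation test of a share cannot give a two-sided p under 0.333, so these shares are described without one.

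Of the eEF1A reads, Solyc06g005060 held 46.3% and 44.3% in LTM, 45.3% and 42.4% in CHX, and 38.3% and 37.2% in mRNA. Solyc06g009970 held 33.5% and 33.2% in LTM, 34.6% and 34.1% in CHX, and 49.3% and 44.6% in mRNA, so that it led the mRNA reads and Solyc06g005060 led both kinds of footprint. LTM and CHX shares of these 2 genes lay within about 2 percentage points of each other on average, apart from mRNA. Solyc11g069700 held 13.7% and 16.1% in LTM, 14.9% and 17.2% in CHX, but 5.27% and 11.0% in mRNA. Solyc06g009960 held 5.19% to 7.17% in the 6 libraries.

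**Figure D4:**
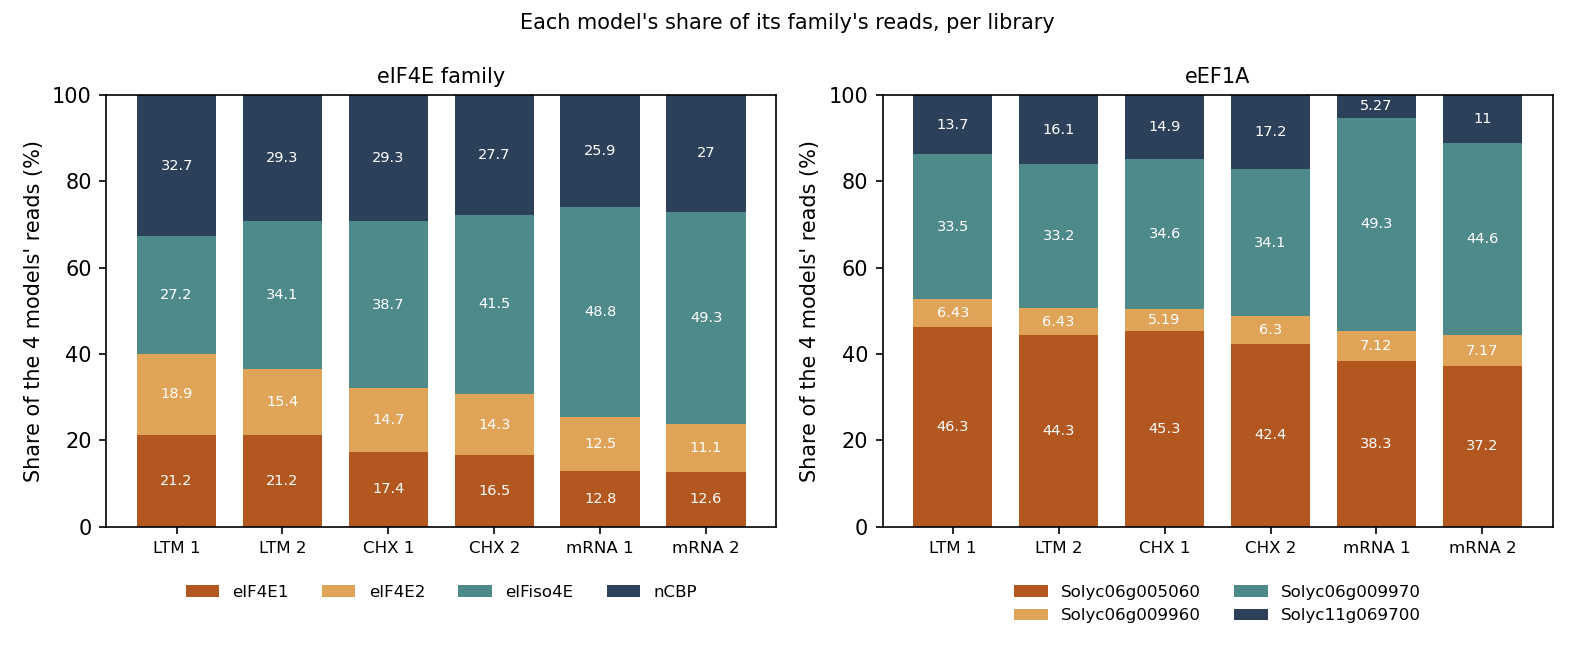
Share in percent (vertical axis) of each gene in the summed reads of its family, per library, for the 4 cap-binding genes (left) and the 4 eEF1A genes (right). eIFiso4E takes less of the family's reads in LTM than in mRNA and eIF4E1 more, and Solyc06g009970 takes less in footprints than in mRNA. Shares within a family make up a whole, so they do not vary independently.

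Likeness of pattern was measured as the Euclidean distance of log2 (CPM + 1), centred on each model's mean, over the 6 libraries; a small distance means parallel values, and nothing about function follows from it. Among 7096 other models with a mean of at least 10 CPM, those nearest to eIF4E1 were Solyc04g012160.3.1 (distance 0.127) and Solyc11g012150.2.1 (0.129). Solyc04g012160.3.1 had 24.9 ± 2.33 CPM in LTM, 19.8 ± 3.27 in CHX and 13.5 ± 0.487 in mRNA (SD, n = 2 each). Of the family, eIF4E2 was nearest to eIF4E1 at 0.295, closer than all but 1.54% of those models, followed by nCBP at 0.467, while eIFiso4E lay at 1.34.

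Solyc06g005060, the eEF1A gene with the highest mean CPM, was most like Solyc01g110450.3.1 (distance 0.102) and Solyc12g098330.2.1 (0.116). Solyc12g098330.2.1 had 68.8 ± 9.97 CPM in LTM, 108 ± 3.54 in CHX and 46.7 ± 6.43 in mRNA (SD, n = 2 each). The other eEF1A genes lay farther from Solyc06g005060, at 0.627 for Solyc06g009960, 0.83 for Solyc06g009970 and 1.22 for Solyc11g069700, and 9.75% to 47.2% of the other models were at least as near.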

How the data were processed

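The authors' deposited table holds raw read counts per gene model, as whole numbers; per the file headers, mRNA reads were counted in the transcript region and footprints in the coding region. Per the labels' protocols, fragments of 26 to 32 nt were selected for footprints and libraries read as 75-bp single ends. The sources used here do not give the aligner, counter, build or annotation, nor how reads matching several models were treated.

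Groups and replicate numbers come from the sample titles. With R 4.3.3 and edgeR 4.0.16, models were kept by filterByExpr (20806 of 35768), scaled by TMM factors (0.863 to 1.16), and fitted in 1 quasi-likelihood model of all 6 libraries with kind of library as the factor (3 residual degrees of freedom). The 3 contrasts used two-sided tests, p-values adjusted by Benjamini-Hochberg across every tested model, and a threshold of 0.05. Standard errors and 95% intervals derive from the fold change and its F statistic. The procedure was tested on simulated counts with changes in LTM, scored in LTM vs CHX alone, with the same dispersion for every model. That simulation does not cover CHX vs mRNA or models with widely differing replicates. Alternatives were DESeq2 1.42.0, other scalings and filters, a fit to the 2 kinds compared, a replicate block, and leaving out each library. A count of 0 would allow 3 counts, or 0.0616 to 0.164 CPM.

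The 8 genes and the lists were chosen with earlier results of these data known. The rule for named models takes all 8 genes and, for eIF4E1 and the eEF1A gene of highest mean CPM, the 2 other models of at least 10 CPM with the nearest pattern. Other translation factors were not counted as a list, because identifiers could not be paired with names. Replicates differed by more than sampling noise (chi-square per degree of freedom 52.8 in mRNA, 47.1 in CHX and 48.3 in LTM).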

Additional observations from a re-analysis of the deposited data

How the results depend on the processing

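Of 309 alternative values for the 8 genes, 248 kept direction and call, 22 missed the threshold, 25 newly passed it, and 14 changed sign, all 14 in genes that were not called. Those were, in LTM vs CHX, eIF4E1 with upper-quartile factors (-0.0024) and without CHX replicate 2 (-0.05); eIF4E2 with upper-quartile factors (-0.09), with no filter (-0.02), and without LTM replicate 1 (-0.21), CHX replicate 2 (-0.11) or mRNA replicate 1 (-0.0045); and nCBP with library totals (0.19), with the 10 CPM filter (0.10), and without LTM replicate 2 (0.02) or CHX replicate 1 (0.03). In LTM vs mRNA they were Solyc06g009960 with library totals (0.23) and without LTM replicate 1 (0.16) or mRNA replicate 2 (0.09). Without 1 library these ran from -0.05 to 0.24 for eIF4E1, -0.21 to 0.20 for eIF4E2 and -0.26 to 0.03 for nCBP, and from -0.26 to 0.16 for Solyc06g009960. With the cap-binding genes summed, the log2 fold change of LTM vs mRNA was -0.04, against 0.70 for eIF4E1 alone. For CHX vs mRNA, genes higher numbered 2 and genes lower 1 with the 10 CPM filter, which tested 7 of the 8, and genes higher 2 to 6 without 1 library. For LTM vs CHX, genes lower numbered 1 with library totals and 2 to 5 without 1 library. For LTM vs mRNA, genes higher numbered 2 with DESeq2, 4 with library totals, 2 with no filter and 1 to 3 without 1 library, and genes lower numbered 0 with library totals and 1 to 2 without 1 library. Apart from scaling, filtering and fewer libraries, the cause was not tested. Deviations of same-numbered libraries correlated at 0.356 (CHX and mRNA), 0.338 (LTM and CHX) and 0.207 (LTM and mRNA), but the labels do not say that a number marks a shared extract. A replicate block gave 6 genes higher in CHX vs mRNA, 5 lower in LTM vs CHX, and 3 higher and 1 lower in LTM vs mRNA. The genes it added were eIF4E2 in CHX vs mRNA (0.49, edgeR adjusted p = 0.013) and LTM vs mRNA (0.49, 0.0132), and Solyc11g069700 in LTM vs CHX (-1.06, 0.00184) and LTM vs mRNA (1.05, 0.00149). With TMM factors the mean level of eIF4E1 was 12.1 CPM in LTM and 7.46 in mRNA.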

Other observations

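On library totals, all 4 eEF1A genes had more CPM in replicate 2 than in replicate 1 of each kind of library, with replicate ratios of 1.23 to 1.51 in LTM, 1.01 to 1.31 in CHX and 1.16 to 2.67 in mRNA. With TMM factors this did not hold throughout: Solyc06g005060 had 1258 CPM in CHX replicate 1 and 1186 in replicate 2. Solyc06g009970 then had 963 and 952 CPM in CHX replicates 1 and 2, and 642 and 624 CPM in mRNA replicates 1 and 2. The cap-binding genes did not share the order seen on library totals: eIF4E1, eIF4E2 and nCBP had more in replicate 1 of LTM and of CHX. The labels do not say that libraries of one number share an extract.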
